A study of Mus musculus with 6 samples.

Results

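A set of 7 axon guidance and axon growth genes, among the 475 genes in the authors' table, was chosen by their symbols: the semaphorins Sema5a and Sema5b, the receptors Plxnd1, Plxnc1, Robo3 and Ephb2, and the growth cone protein gene Gap43. All 7 were found, each as 1 row. Expression was measured by RNA sequencing of the whole hippocampus of one hemisphere in C57Bl/6 mice aged 4 months, 3 mice per group. Every mouse had been fear conditioned to a context, had recalled that memory on return to the context and had then gone through spaced extinction training. The CI-994 group was injected each day with CI-994, an inhibitor of class I histone deacetylases, at 30 mg/kg, and the VEH group was injected with its vehicle alone. Tissue was taken 1 h after the last extinction session, so the groups shared the training and are labelled by the drug. They also differed in the levels of Y-linked genes and of Xist, given below. A difference in the sex of the mice cannot be told apart from the drug here. Neither sex nor housing is in the labels, and no group of untrained mice was analysed here.

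Axon guidance relies on cues that steer the growth cone, the motile tip of an axon. Semaphorins signal through plexins, often with neuropilins as co-receptors, Slits through Robo receptors, and ephrins through Eph receptor tyrosine kinases, and these receptors act on the actin cytoskeleton through small GTPases. In the adult hippocampus many of the same proteins remain at synapses, where they bear on spine number and on the growth of mossy fibres, the axons of dentate granule cells. Gap43 is a substrate of protein kinase C that lies under the membrane of growth cones and of some adult axon terminals.

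Of these 7 genes 4 were lower in CI-994 and 3 were higher. Among all 475 genes, 276 (58.1%) were lower and 199 (41.9%) higher, so the split among the 7 lay near that of the table. Sema5a, Plxnd1, Sema5b and Ephb2 were lower, with log2(CI-994/VEH) from -1.03 to -0.53 and a median of -0.91, against a median of -0.50 over all lower genes. Robo3, Gap43 and Plxnc1 were higher, with log2 ratios from 0.33 to 1.09 and a median of 0.37, against 0.82 over all higher genes. The values of a group are 1 figure per gene in arbitrary units, in which the authors had combined the 3 mice. No spread between mice is given with them. The p-values given are those of the authors' deposited table, all of whose genes have a p under 0.05. No gene of that table had an absolute log2 ratio below 0.29. A gene outside the table may have been unchanged, too low to test or short of the threshold, which cannot be told apart here.

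**Figure D1:**
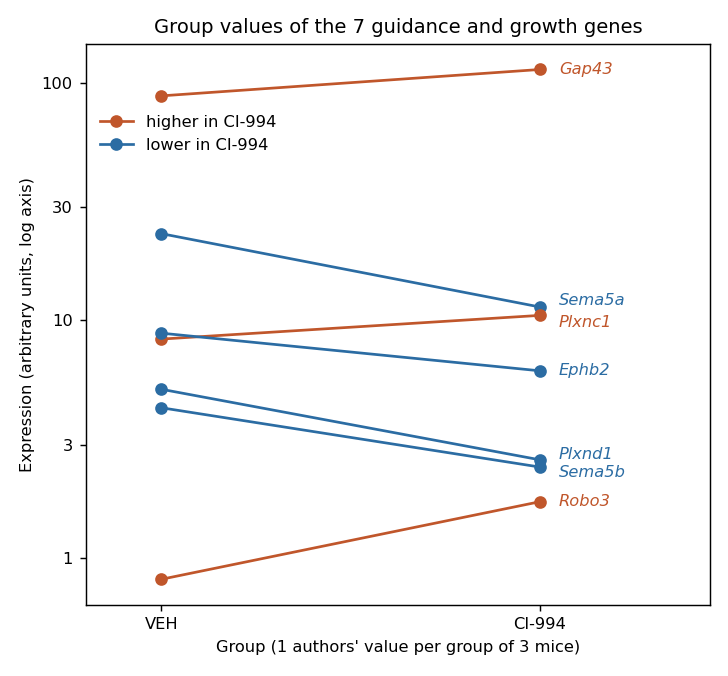
Expression of the 7 genes in the VEH and CI-994 groups, in arbitrary units on a log axis, with 1 authors' value per group and no error. Lines that go down mark the 4 genes lower in CI-994 and lines that go up the 3 higher ones, from Sema5a (23.2 to 11.4 units) to Robo3 (0.813 to 1.72 units).

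Directions follow the group labels of the expression columns. The log2 column of the authors' deposited table is headed as CI-994 against VEH, yet in 475 of 475 genes it equals the log2 of VEH over CI-994 within 0.0001, these 7 included. Should that header be the correct one, with the 2 expression columns swapped, every direction given here turns around. Other facts of the samples stand beside all the comparisons. Genes of the Y chromosome were near 0 in CI-994 but not in VEH (Ddx3y at 0.0503 against 7.73 units, Uty at 0.00821 against 2.12 units), and Xist was at 25.3 against 8.46 units. The choroid plexus, which makes cerebrospinal fluid, had 24 of its 26 markers in the table, each of them higher in CI-994. That list was chosen with earlier results of these data known.

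The stretches of DNA before the starts of 3 of the genes are shown because they cover the gene with the largest decrease, Sema5a, and the pair of plexins that moved in opposite directions. Each line gives the 250 bases before the RefSeq start, 5′ to 3′ on the strand of the gene, in build GRCm38.p6, and capitals mark GC boxes (GGGCGG or CCGCCC), the motif known to be bound by Sp1-type factors.
Sema5a, chr15:32244563-32244812, plus strand: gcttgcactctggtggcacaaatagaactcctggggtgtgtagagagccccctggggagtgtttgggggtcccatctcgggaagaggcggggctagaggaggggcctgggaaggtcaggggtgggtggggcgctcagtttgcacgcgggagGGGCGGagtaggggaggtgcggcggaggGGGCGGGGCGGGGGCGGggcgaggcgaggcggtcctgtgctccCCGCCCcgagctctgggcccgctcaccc
Plxnd1, chr6:115995006-115995255, minus strand: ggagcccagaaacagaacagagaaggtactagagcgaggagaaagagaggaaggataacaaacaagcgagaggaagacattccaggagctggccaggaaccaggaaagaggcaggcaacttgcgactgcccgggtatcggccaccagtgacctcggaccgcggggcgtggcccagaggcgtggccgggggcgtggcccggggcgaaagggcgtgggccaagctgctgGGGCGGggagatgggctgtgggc
Plxnc1, chr10:94944846-94945095, minus strand: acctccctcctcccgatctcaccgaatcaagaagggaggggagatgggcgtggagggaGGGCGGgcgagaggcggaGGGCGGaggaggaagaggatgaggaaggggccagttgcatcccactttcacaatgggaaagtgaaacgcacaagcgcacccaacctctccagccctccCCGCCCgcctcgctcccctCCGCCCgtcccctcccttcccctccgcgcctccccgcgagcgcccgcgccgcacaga
Within 300 bases, the same stretch with 50 more past the start, Sema5a held 5 GC boxes, Plxnc1 4 and Plxnd1 2, overlapping matches counted singly. Among the 3 shown, GC boxes stood before a gene that was higher and before genes that were lower. These 3 were picked by their direction, and a relation of GC boxes to direction was not tested.

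Promoters were matched for 6 of the 7 genes, all but Gap43. Those of Sema5a, Plxnd1, Plxnc1 and Robo3 held a GC box, 4 of 6, and those of Sema5b and Ephb2 held none, against 35.7% of the 32851 promoters in the RefSeq table. They held from 17 (Robo3) to 30 (Plxnc1) CpG per 300 bases, against a median of 7 and a 90th percentile of 31 over all promoters. Fewer CpG than in Robo3 were found in 68.6% of all promoters, and fewer than in Plxnc1 in 88.3%. Their GC content ran from 63.3% in Robo3 to 73.0% in Sema5b, against a median of 52.7%. Motifs of activity-regulated factors, and apart from these the TATA box, were searched on both strands in the same windows. The cAMP response element TGACGTCA was in 0 of 6 (1.79% of all promoters), the AP-1 motif TGANTCA in 0 of 6 (7.81%), the Egr motif GCGTGGGCG in 0 of 6 (0.612%) and the TATA box motif TATAAA in 0 of 6 (13.6%). These windows reach 250 bases before the start, and the letters were looked for nowhere else.

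The semaphorin ligands were both lower. Sema5a encodes a transmembrane semaphorin with thrombospondin repeats that, in mice, limits the formation of excitatory synapses on dentate granule cells through plexin-A2. Its expression was 23.2 units in VEH and 11.4 in CI-994. That is 2.04-fold lower (log2 ratio -1.03), and the p in the authors' deposited table is 8.08e-12, the smallest of the 7 and 14th in order among the 475. Only 32 genes of the table had a lower log2 ratio. Sema5a lies on chromosome 15 from 32174567 to 32626096 in mm9, a span of 451.5 kb and the 19th longest in the table.

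Sema5b, the paralog of Sema5a and known as a repellent of retinal neurites, was at 4.29 units in VEH and 2.41 in CI-994. It was thus 1.78-fold lower (log2 ratio -0.83), with p = 0.00340 in the authors' deposited table. Sema5b lies on chromosome 16 from 35541447 to 35664344 (mm9). The aligned coding bases of Sema5a and Sema5b were 66.0% identical, and the longest run their transcripts shared was 48 bases. Read length and the handling of reads with several matches are unstated in the labels, so any exchange of reads within such a run was not tested. In the newer GENCODE annotation Sema5a overlaps 1 antisense gene and Sema5b 1 pseudogene on the opposite strand, and whether reads were counted by strand is unstated too.

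Among receptors, the plexins were divided. Plxnd1 encodes the receptor of semaphorin 3E, known for guiding blood vessels and for setting the specificity of synapses. Its level was 5.13 units in VEH and 2.59 in CI-994, 1.98-fold lower (log2 ratio -0.99), with p = 2.65e-05 in the authors' deposited table. Plxnc1 encodes the receptor of semaphorin 7A. It was at 8.34 units in VEH and 10.5 in CI-994, 1.26-fold higher (log2 ratio 0.33), and its p of 0.0491 in the authors' deposited table lay just inside 0.05. Of the 475 genes, 437 had a larger absolute log2 ratio than Plxnc1. Plxnd1 lies on chromosome 6 from 115904828 to 115945023 and Plxnc1 on chromosome 10 from 94253611 to 94407212 (mm9). The difference between the responses of these plexins has no test, since each group has 1 value per gene. Their transcripts shared at most 26 bases in a run. Neither ligand, Sema3e or Sema7a, was in the table, nor was Plxna2.

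Robo3 was the largest increase of the 7. It encodes a divergent Robo receptor that, in mammals, lets commissural axons approach the midline and binds NELL2 rather than Slits. Expression was 0.813 units in VEH and 1.72 in CI-994, 2.12-fold higher (log2 ratio 1.09), with p = 0.00701 in the authors' deposited table. The other 6 genes had at least 1 unit in both groups, as had 89.9% of the table, and with 1 unit added to both values the log2 ratio of Robo3 was 0.59. Nell2 was not in the table, and neither were Robo1, Robo2 and Robo4. Robo3 lies on chromosome 9 from 37223629 to 37240760 (mm9), at 17.1 kb the shortest span of the 7.

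Ephb2, a receptor tyrosine kinase for ephrin-B ligands that also binds NMDA receptors at excitatory synapses, was at 8.83 units in VEH and 6.13 in CI-994. It was 1.44-fold lower (log2 ratio -0.53), with p = 0.00994 in the authors' deposited table, close to 0.01. Ephb2 lies on chromosome 4 from 136209524 to 136391850 (mm9). The ephrin family, of A and B types and so with its ephrin-B ligands, had no gene in the table, 0 of 8.

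Gap43 was at 88.0 units in VEH and 113.7 in CI-994. It was thus 1.29-fold higher (log2 ratio 0.37), with p = 0.0190 in the authors' deposited table, and 187 genes of the table had a higher log2 ratio. The gene lies on chromosome 16 from 42248673 to 42340764 (mm9) and hosts the microRNA gene Mir6540. Marcks and Marcksl1, which encode other membrane-bound kinase C substrates, were lower, as given below.

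Of the 7, 5 had a p of up to 0.01 in the authors' deposited table, as had 49.7% of the whole table. A p of up to 0.001 was found for 2 of the 7 (Sema5a and Plxnd1) and for 25.9% of the table. How many genes were tested is unstated in the labels and headers. With an assumed 15000 tested genes, Benjamini-Hochberg adjustment of the authors' deposited p-values left the same pair, at adjusted p = 8.66e-09 for Sema5a and 0.00568 for Plxnd1, and 21.1% of the table. The other members then had adjusted p-values from 0.313 (Sema5b) to 1 (Plxnc1). At least 2-fold apart were Sema5a, which was lower as were 7.16% of the table, and Robo3, which was higher as were 16.8%.

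**Figure D2:**
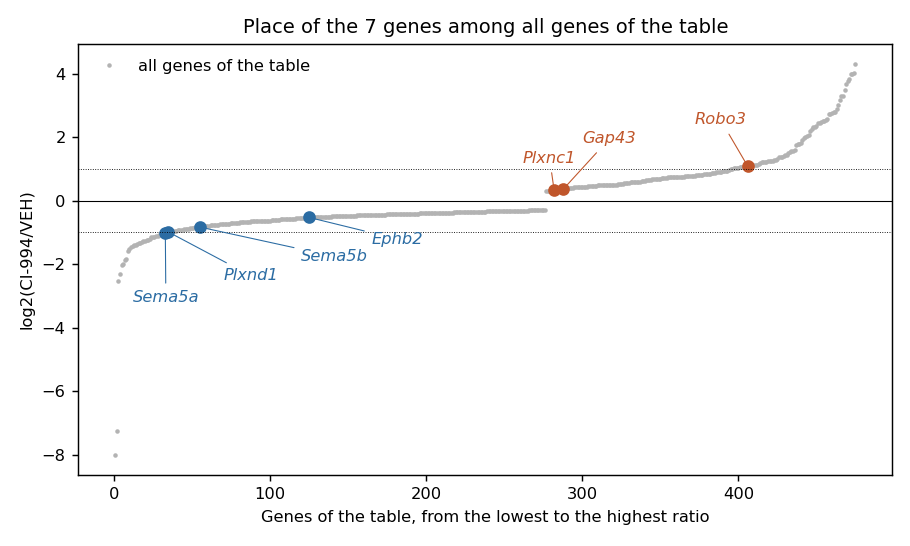
log2(CI-994/VEH) of all 475 genes of the table, ordered from the lowest to the highest, with the 7 genes marked and dotted lines at 2-fold. Sema5a (-1.03) and Plxnd1 (-0.99) lie near -1, and Plxnc1 (0.33) and Gap43 (0.37) lie at the edge of the gap around 0 that the choice of listed genes leaves.

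Within the wider families the listed genes were mostly lower. The 10 families of guidance and growth genes held 151 genes, of which 18 were in the table, 14 lower and 4 higher, with a median log2 ratio of -0.45. Among all genes listed 58.1% were lower and the median was -0.34. Without the 7 genes, 10 of the 11 others were lower. As only listed genes carry a value, the 133 remaining genes have none. The families of netrins with their receptors (0 of 19) and of ephrins (0 of 8) had no gene in the table.

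Further ligands in the table were Sema3b and Slit1. Sema3b, a secreted semaphorin that acts through neuropilins, was the only increase among the family genes outside the 7. It was at 0.888 units in VEH and 2.62 in CI-994 (2.96-fold higher, log2 ratio 1.56). Like Robo3, Sema3b lay below 1 unit in VEH, so its ratio rests on a low level. Slit1, a Robo ligand, was at 43.5 and 34.1 units (log2 ratio -0.35).

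Of the family receptors outside the 7, those in the table were all lower, as were 58.1% of all its genes. The plexin-A4 gene Plxna4, whose product signals for class 3 semaphorins with neuropilins, was at 25.1 units in VEH and 18.7 in CI-994 (log2 ratio -0.42), and the co-receptor gene Nrp1 was at 29.1 and 23.1 units (-0.34). Beside Ephb2, the Eph receptor genes Ephb1 (11.1 and 7.69 units, log2 ratio -0.53) and Epha7 (71.9 and 51.7 units, -0.48) were lower, which made 3 of 14 Eph receptor genes listed and 3 lower. Coding bases of Ephb2 and Ephb1 were 73.5% identical where aligned, with no shared run over 27 bases. Rtn4r, the receptor of the myelin inhibitor Nogo, was at 63.7 and 51.1 units (log2 ratio -0.32).

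Genes of adhesion and of the growth cone interior completed the set. Cntn4, a contactin of axon surfaces, had a log2 ratio of -0.63 and Ngef, which encodes the Eph receptor partner ephexin, one of -0.48. Marcksl1 (-0.50) and Marcks (-0.34), which bind actin and membranes, were lower, opposite to Gap43, so that 2 of 3 listed growth cone genes were lower and 1 higher. In the authors' deposited table the p-values of the 11 genes outside the 7 ran from 0.00292 (Ngef) to 0.0477 (Marcksl1).

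**Figure D3:**
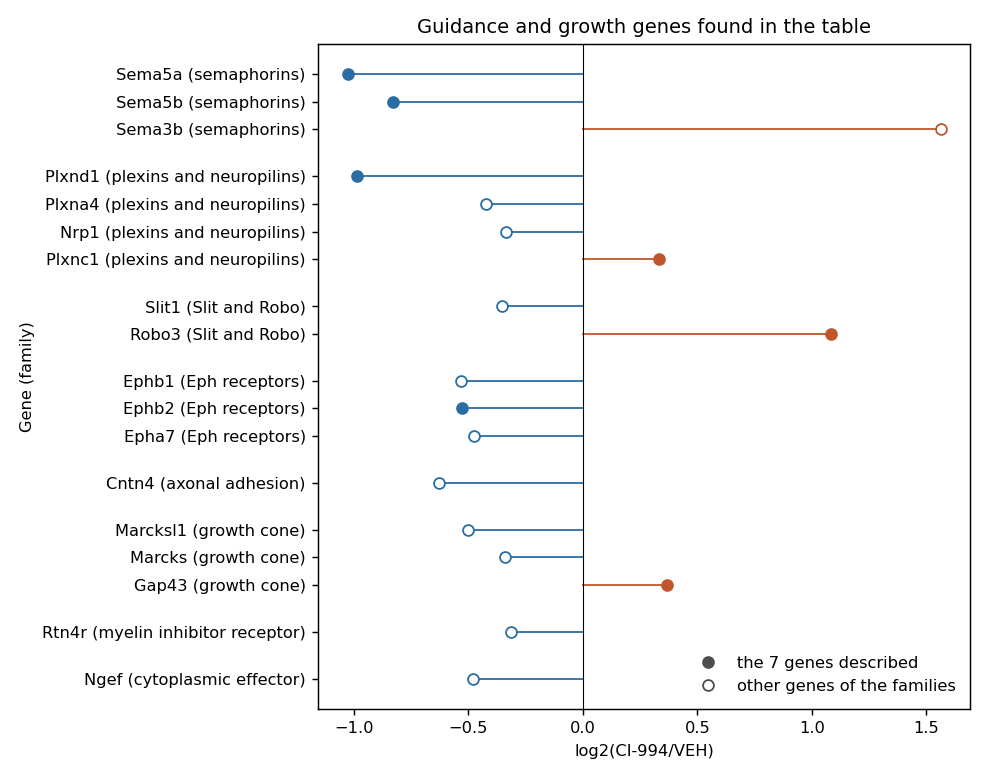
log2(CI-994/VEH) of the 18 guidance and growth genes found in the table, by family, with filled points for the 7 genes described and open points for the other 11. Only Sema3b, Plxnc1, Robo3 and Gap43 lie right of 0.

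Genes with group values most like those of each member were sought over both groups, as the smallest distance in log2 VEH and log2 CI-994 values. Whether the units are per length is not stated, so nearness of level between genes depends on that scale. Sema5a lay closest to Prox1, the transcription factor that marks dentate granule cells (distance 0.15, 23.1 units in VEH and 12.6 in CI-994), followed by Rprm (0.27). Plxnd1 lay closest to Iyd (0.16), a gene on the list of CA2 and CA3 markers, and Net1 (0.25). For Sema5b these were the serotonin receptor gene Htr4 (0.074) and the neuropeptide Y receptor gene Npy5r (0.080). For Ephb2 they were Arhgef10l (0.038) and the dopamine receptor gene Drd5 (0.088). Robo3 was nearest to Nid2 (0.11) and Slc16a12 (0.11), and Plxnc1 to Hs6st2 (0.077) and Prss23 (0.11). Gap43 was nearest to the neurofilament gene Nefm (0.30), with the next gene, Napa, at 0.48 and in the opposite direction.

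Markers of hippocampal cell types differed between the same groups. Their lists were chosen with earlier results of these data known, so the share found and its direction are descriptions without a test. For dentate granule cells the table held 16 of 18 markers, each of them lower, with a median log2 ratio of -0.82 and a summed level of 405.3 units in VEH and 214.0 in CI-994. The log2 ratios of Sema5a, Plxnd1, Sema5b and Ephb2 lay within the range of these markers, between C1ql2 at -2.32 and Calb1 at -0.35. That range is wide and also holds the median of all lower genes, -0.50, so a place within it is not particular to these genes. Among pyramidal cell markers, 3 of 8 for CA1 (summed level 105.7 and 69.8 units) and 4 of 11 for CA2 and CA3 (280.9 and 181.1 units) were in the table, all lower. The CA2 and CA3 markers had a median log2 ratio of -0.81, and Pcp4 alone made up 200.7 and 133.3 of their units. The Cajal-Retzius cell markers Calb2 (-0.52) and Reln (-0.39), 2 of 6, were lower. Other cell types had few markers in the table. These were 1 of 8 for neurons (Nefm, 0.31) and 1 of 7 for astrocytes (Aqp4, -0.34). For oligodendrocytes it was 1 of 8 (Hapln2, 0.72), for endothelium 1 of 6 (Vwf, -0.51) and for microglia 0 of 6. The unlisted markers of these cells have no value here. The 24 choroid plexus markers summed to 126.5 units in VEH and 607.5 in CI-994, and their median log2 ratio was 2.73. Of these choroid plexus units, Enpp2 alone made up 75.3 in VEH and 377.0 in CI-994. None of the markers in the table was at 0 in a group, and Ttr, which defines that epithelium, was not in the table. Fewer cells of a type and less RNA per cell cannot be told apart in whole tissue. The part that these markers and the difference in Y-linked genes have in the values of the 7 genes was not tested.

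**Figure D4:**
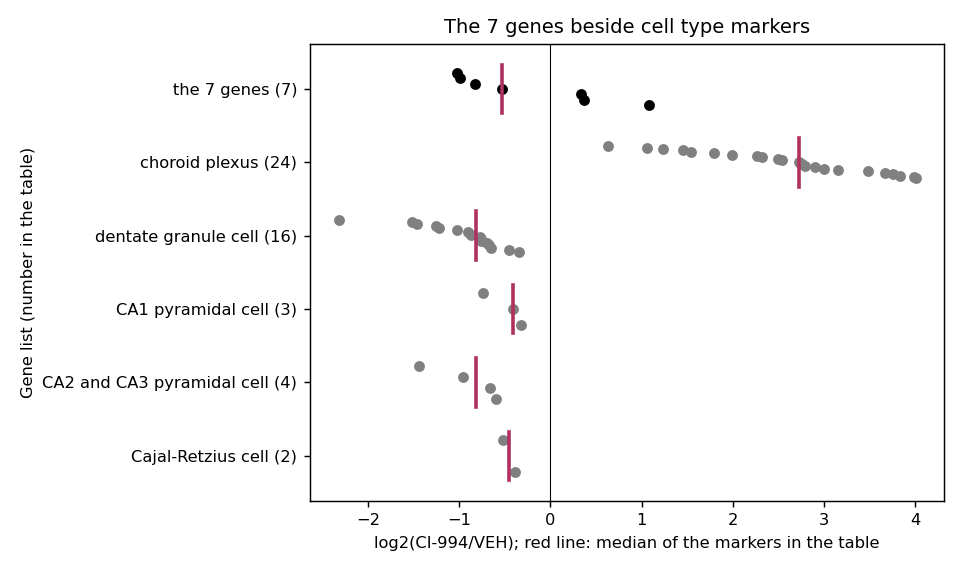
log2(CI-994/VEH) of the 7 genes beside cell type markers found in the table, 1 point per gene, with red lines at the medians. The 16 dentate markers all lie left of 0 and the 24 choroid plexus markers right of it, while the 7 genes lie on both sides.

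By their median, the loci of the 7 genes were long for the table. Their median span was 122.9 kb against 29.6 kb over the table, and 4 of 7 spanned at least 100 kb, as did 25.9% of the table. The 4 lower genes spanned from 40.2 kb (Plxnd1) to 451.5 kb (Sema5a), and the 3 higher ones from 17.1 kb (Robo3) to 153.6 kb (Plxnc1). Robo3 thus lay below the table's median span, and Plxnd1 not far above it. In the GENCODE annotation the transcripts with the longest coding sequence had between 3 exons (Gap43) and 36 exons (Plxnd1) and encoded 227 residues (Gap43) to 1925 residues (Plxnd1).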

How the data were processed

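RNA of 6 hippocampi, 3 per group, had been processed with TopHat and Cuffdiff on mm9, per the submitters' processing notes. Versions, annotation, strand handling, read length, depth and scaling are stated neither in the labels nor in the headers. The deposited table holds, per the file headers, for each gene 1 expression signal in arbitrary units per group, with the authors' log2 ratio and p-value. Each group column combines the 3 mice of its group, and no values of single mice were analysed here, so neither an error nor a test over mice is given.

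The log2(CI-994/VEH) was computed from the group values with Python 3.11.15, numpy 2.4.6 and pandas 2.3.3, and figures with matplotlib 3.10.9. The ratio and distance functions were tested on simulated tables of the same size, and the adjustment function on a separate set of simulated p-values. Members and lists were chosen with earlier results of these data known, so counts are descriptions without a test. Named genes were the 7 members, the genes of 10 guidance and growth families in the table, the 2 nearest genes to each member, Ddx3y, Uty and Xist, and up to 3 markers per cell type. The genes of the closing observations lie outside this rule and were chosen after their values were seen. Promoter sequences are RefSeq's (GRCm38.p6) and gene structures GENCODE M21's, matched by symbol, with coding sequences aligned in Biopython 1.88. Coordinates of loci are those of the authors (mm9). Alternatives were pseudocounts, limits on p, level and fold, assumed numbers of tested genes and the sign of the deposited log2 column.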

Additional observations from a re-analysis of the deposited data

How the results depend on the processing

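No paired analysis was possible because the deposited table has 1 value per group and no value per mouse, and for the same reason no mouse could be left out. By the sign of the deposited log2 column all directions turn by construction: Sema5a 1.03, Plxnd1 0.99, Sema5b 0.83, Ephb2 0.53, Plxnc1 -0.33, Gap43 -0.37 and Robo3 -1.09, with 4 of the 18 family genes lower and 14 higher. With a pseudocount of 1 unit the log2 ratio was -0.63 for Sema5b, -0.77 for Plxnd1 and 0.59 for Robo3, because 1 unit weighs more at low levels. The order of the 7 genes was the same with a pseudocount of 1 or 0.1. Of the 7 genes, 4 lower and 1 higher were left at p up to 0.01, and 2 lower and 0 higher at p up to 0.001. Of the whole table, in both directions together, 49.7% and 25.9% met these limits. At least 2-fold apart were 1 lower and 1 higher, beside 7.16% of the table lower and 16.8% higher by that much. At least 1.5-fold apart were 3 lower and 1 higher. The share of the table at 1.5-fold was not taken, so that count cannot be set against it. Under Benjamini-Hochberg adjustment over an assumed 10000, 15000 or 20000 genes, 2 lower and 0 higher members were left each time. Of the 18 family genes, 8 lower and 2 higher had p up to 0.01, and 2 lower and 0 higher p up to 0.001. The table's shares at these limits, 49.7% and 25.9%, were not split by direction. At least 2-fold apart were 1 lower and 2 higher, beside 7.16% and 16.8% of the table. At least 1.5-fold apart were 4 lower and 2 higher, again with no share of the table taken. Under a minimum of 1 unit 2 were higher, over an assumed 10000, 15000 or 20000 genes 2 were lower and 0 higher, and without the 7 genes, a setting chosen after seeing the data, 1 was higher. Each of these settings admits fewer genes. Of the whole table, 89.9% had at least 1 unit in both groups, and 21.1% were left over an assumed 15000 genes. Among cell type markers, 13 choroid plexus markers had at least 1 unit in both groups, and 9 dentate markers had p up to 0.001 and 6 were at least 2-fold apart. The spread between mice and the sequencing depth behind each value are unknown here.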

Other observations

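Genes that act near guidance pathways but were on none of the family lists were picked from the table by name after its values were seen, so they carry no count or test. Cntnap5a, a neurexin-related adhesion gene, was at 2.62 units in VEH and 1.24 in CI-994 (log2 ratio -1.08). Also lower were Kirrel3 (-0.51), an adhesion gene of mossy fibre synapses, the chemokine gene Cxcl12 (-0.57), the growth factor gene Ptn (-0.35) and Gprin1 (-0.31), an inducer of neurite outgrowth. Celsr3, an atypical cadherin needed for axon tracts, was higher, at 4.75 units in VEH and 6.47 in CI-994 (0.45).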
